A study of Homo sapiens with 4 samples.

Results

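Interferon-stimulated effector genes encode the proteins through which a cell carries out its response to interferon. The module described here holds 54 such genes listed by name. Probes were looked up through the RefSeq accessions of the array, which gave 63 probes for 53 of the 54 genes, among 19740 genes named on the array. IFI27 had no probe, so that it entered only the search of promoters. The 53 genes were placed in 10 groups by the role of their products.

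Interferons are secreted proteins made by cells that detect foreign nucleic acid. Type I and type III interferons bind separate receptors, but both activate the kinases JAK1 and TYK2 and a transcription factor complex that contains STAT2 and IRF9, which enters the nucleus and binds an interferon-stimulated response element in the promoters of its targets. The targets include proteins that bind viral RNA, block virus entry, assembly or release, consume nucleotides, tag proteins with ISG15, or shape the response itself. Epithelial cells, and carcinoma lines derived from them, can make and answer type I and type III interferons without immune cells.

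The cells were Hs746T, an established human gastric carcinoma line that carries MET amplification and a MET splice mutation which removes an exon, so that its MET receptor is highly active. Total RNA of 4 conditions was hybridised to single-colour Agilent human expression arrays, 1 array per condition. The DMSO array holds cells given the vehicle, and the PHA665752 array cells given a small-molecule inhibitor of the MET kinase, whose dose and duration on the array the sources used here do not state. The sc siRNA array holds cells transfected with a scrambled siRNA, and the MET siRNA array cells transfected with an siRNA against MET, both with a lipid reagent and both harvested 48 h later. The inhibitor was set against DMSO, and the MET siRNA against the scrambled one, to see what loss of MET activity or of MET itself does to the cells. The ratio of sc siRNA over DMSO, between both controls, was computed as well. It shares the DMSO array with the first comparison and the sc siRNA array with the second. In it transfection, the siRNA, the vehicle and any difference in culture time or handling of the medium cannot be told apart.

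With 1 array per condition there was no spread between replicates, no test and no p-value, so every ratio compares single arrays of a single line. Signals are given as deposited, and log2 ratios after each array was scaled to the 75th percentile of its probes. A gene was called higher or lower where the ratio of its probe passed 2-fold. The 999 probes that were spotted 10 times on each array gave a yardstick of spot noise only, a median SD between spots of 0.0531 to 0.0589 on the log2 scale, or 0.0800 for a log2 ratio of single spots. Between 61.1% and 68.2% of probes were well above background, and 1.69% to 5.58% of spots carried an outlier mark and were left out, with the MET siRNA array highest for marks and lowest for detection. The MET probe, a check of the knockdown but not of kinase activity, read 221452 (DMSO), 100492 (PHA665752), 190009.5 (sc siRNA) and 77854 (MET siRNA). It gave log2 ratios of -0.93 with the inhibitor and -1.33 with MET siRNA. Of its 10 spots, 7 were used on the DMSO array, and with outlier marks unused the ratios were -0.80 and -1.31. EPCAM and the keratins KRT8, KRT18 and KRT19 were well above background on every array, whereas the epithelial cadherin CDH1 read only 10.4 to 33.0. Mesenchymal markers were also expressed. VIM read 291840 (DMSO) and 276821 (PHA665752), and its spots on both siRNA arrays carried an outlier mark. On their brightest probes CDH2 read 3552 to 4223.5 and ZEB1 1448.5 to 2790 over the 4 arrays. CD3E, which marks T cells, was not well above background on any array, and none of the 4 leukocyte markers with a ratio (PTPRC, CD14, CD68 and ITGAM) passed 2-fold in any comparison on the probe that stood for it. A dimmer PTPRC probe gave 1.07 for PHA665752 over DMSO. The macrophage marker CD68 read 7551 (DMSO), 7212 (PHA665752), 11833 (sc siRNA) and 12170.0 (MET siRNA), and its part in the results was not tested. The endothelial marker PECAM1 read 1846 (DMSO), 304 (PHA665752), 1039 (sc siRNA) and 791 (MET siRNA). In bulk RNA a change in the share of cells that express a gene and a change in the RNA per cell cannot be told apart.

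The interferon-stimulated response element holds a core in which GAAA is followed, after any 2 bases, by GAAA again. In the RefSeq promoter windows of GRCh38.p14, each 250 bases before to 50 after an annotated start, 42 of the 54 genes had at least 1 window, 56 windows in all. The core, searched on both strands, was found in 36 of these 56 windows (64.3%), against 1255 of 35116 windows of all genes (3.57%). Counted by gene, 31 of 42 (73.8%) had it, against 1195 of 27305 (4.38%). The shorter motif TTCNNNGAA, which matches the site bound by STAT dimers and may overlap the first motif in part, was present in 14 of the 56 windows (25%) and in 7.66% of all windows. Matches are letters in a window and say nothing of binding. The first 5 promoters below were chosen for the core. They belong to the members with the highest ratios of sc siRNA over DMSO whose 160 bases before the start hold it. OAS1 was added by name as a gene with no match, though its run holds GAAA, 1 base and GAAA again. All 6 ranked within the first 23 of 14815 genes for that ratio. Other members ranked there too and are not shown, among them MX1 with the core in a window and CMPK2 and XAF1 without it. Each run is the 160 bases before an annotated start, read 5′ to 3′ on the strand of the gene, with the core in capitals where it occurs on either strand.
RSAD2, chr2:6877617-6877776, plus strand, second listed start: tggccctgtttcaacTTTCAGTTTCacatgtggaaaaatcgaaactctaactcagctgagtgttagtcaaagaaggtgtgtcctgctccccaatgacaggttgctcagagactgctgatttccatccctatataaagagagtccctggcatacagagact
IFIT1, chr10:89392463-89392622, plus strand: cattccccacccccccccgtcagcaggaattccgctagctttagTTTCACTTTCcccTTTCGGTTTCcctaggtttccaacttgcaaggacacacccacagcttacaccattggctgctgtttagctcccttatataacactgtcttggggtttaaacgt
EPSTI1, chr13:42992242-42992401, minus strand: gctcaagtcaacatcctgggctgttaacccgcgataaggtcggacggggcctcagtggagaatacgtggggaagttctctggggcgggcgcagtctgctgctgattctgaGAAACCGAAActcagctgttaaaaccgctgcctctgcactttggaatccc
RTP4, chr3:187368225-187368384, plus strand: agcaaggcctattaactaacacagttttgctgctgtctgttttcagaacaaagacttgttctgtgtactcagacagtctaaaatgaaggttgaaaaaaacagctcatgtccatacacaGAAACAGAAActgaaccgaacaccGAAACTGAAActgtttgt
OAS3, chr12:112938314-112938473, plus strand: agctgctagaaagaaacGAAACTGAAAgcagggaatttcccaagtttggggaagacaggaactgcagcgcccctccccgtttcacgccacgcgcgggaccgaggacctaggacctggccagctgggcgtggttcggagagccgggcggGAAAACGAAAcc
OAS1, chr12:112906802-112906961, plus strand: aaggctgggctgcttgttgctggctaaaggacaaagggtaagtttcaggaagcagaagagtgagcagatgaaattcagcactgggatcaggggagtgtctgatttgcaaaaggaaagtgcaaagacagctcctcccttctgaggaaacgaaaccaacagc

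In these runs the core began 145 bases before the RSAD2 start and 116 and 103 bases before the IFIT1 start, in each case as its reverse complement. It began 50 bases before the start of EPSTI1, 42 and 18 before that of RTP4, and 143 and 12 before that of OAS3. The position ranged from 145 to 12 bases before the start, within the 160 bases that the choice of these runs allowed. Among members with a window and a ratio of sc siRNA over DMSO, 25 of 27 with the core and 10 of 11 without it were higher by more than 2-fold. The median log2 ratio was 2.44 for those with the core and 2.73 for those without. Over all genes, 12.8% of 499 genes with the core and 2.26% of 11226 genes without it were higher by more than 2-fold. These shares include the members, which made up 25 of the 64 such genes with the core and 10 of the 254 without it.

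The control arrays differed far more in these genes than either treatment differed from its control. With sc siRNA, 46 of 50 members with a ratio were higher than with DMSO by more than 2-fold (92%), against 2.83% of all 14815 genes, 49 were above 0 (98%, all genes 48.5%), and none was lower by that margin, against 1.15%. Among the 46, HERC5 was a bound, counted only through its signal with sc siRNA. The median log2 ratio of the members was 2.76 and that of all genes -0.01. More than 4-fold was reached by 39 members (background 0.837%) and more than 16-fold by 10 (background 0.0945%, or 14 genes in all). When all genes were ranked from the highest ratio, members took 13 of the first 20 places, 35 of the first 100, and the first 4, held by RSAD2, MX1, MX2 and OAS1. The 4 members that did not pass 2-fold were GBP2, GBP3, LGALS3BP and SP100. ISG15, GBP1 and DDX60L had no ratio here because a spot of their only probe carried an outlier mark on 1 of the arrays. For that reason ISG15, GBP1 and CMPK2 lacked a ratio of MET siRNA over sc siRNA, and IFITM3 and DDX60L one of PHA665752 over DMSO, where HERC5 was below background on both arrays.

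With MET siRNA most of these genes stood slightly above their level with sc siRNA, at the scaling used. No member of 50 with a ratio was higher by more than 2-fold (background 2.04%) and none was lower (background 0.702%). The log2 ratios ran from -0.24 for IFI44L to 0.91 for GBP2, with a median of 0.22 against -0.02 over all 13810 genes. Above 0 were 40 of 50 members (80%), against 47% of all genes. That count depends on the scaling, since centring each array on its probes well above background lowered every ratio by 0.30, turned the sign of 24 of the 50 members and left the members 0.235 above the median of all genes, where it had been 0.239.

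With PHA665752 the members split. Higher by more than 2-fold were 8 of 50 (16%), namely IFIT2, UBA7, MX1, MX2, GBP2, PARP9, TRIM22 and XAF1, against 13.1% of all 14811 genes. OAS3 was the only member lower by that margin (2%), against 7.95% of all genes. The shares past 2-fold were thus near those of all genes on this pair of arrays, of which 21% passed 2-fold in either direction. The median log2 ratio was 0.43 against 0.08 over all genes, and 36 of 50 members were above 0 (72%, all genes 55%). Scaling to the 50th percentile lowered every ratio by 0.246 and gave 5 members higher and 4 lower, with IFIT2, UBA7 and XAF1 no longer past 2-fold and IFI44, CMPK2 and ISG20 beside OAS3 among the lower ones. Correction by normexp gave 6 higher, without UBA7 and XAF1 (both 0.93), and none lower, with OAS3 at -0.77. The median of all genes was -0.17 at the 50th percentile and 0.09 with normexp. Shares of all genes past 2-fold were not counted under these settings, so the shares above are no background for these counts.

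**Figure D1:**
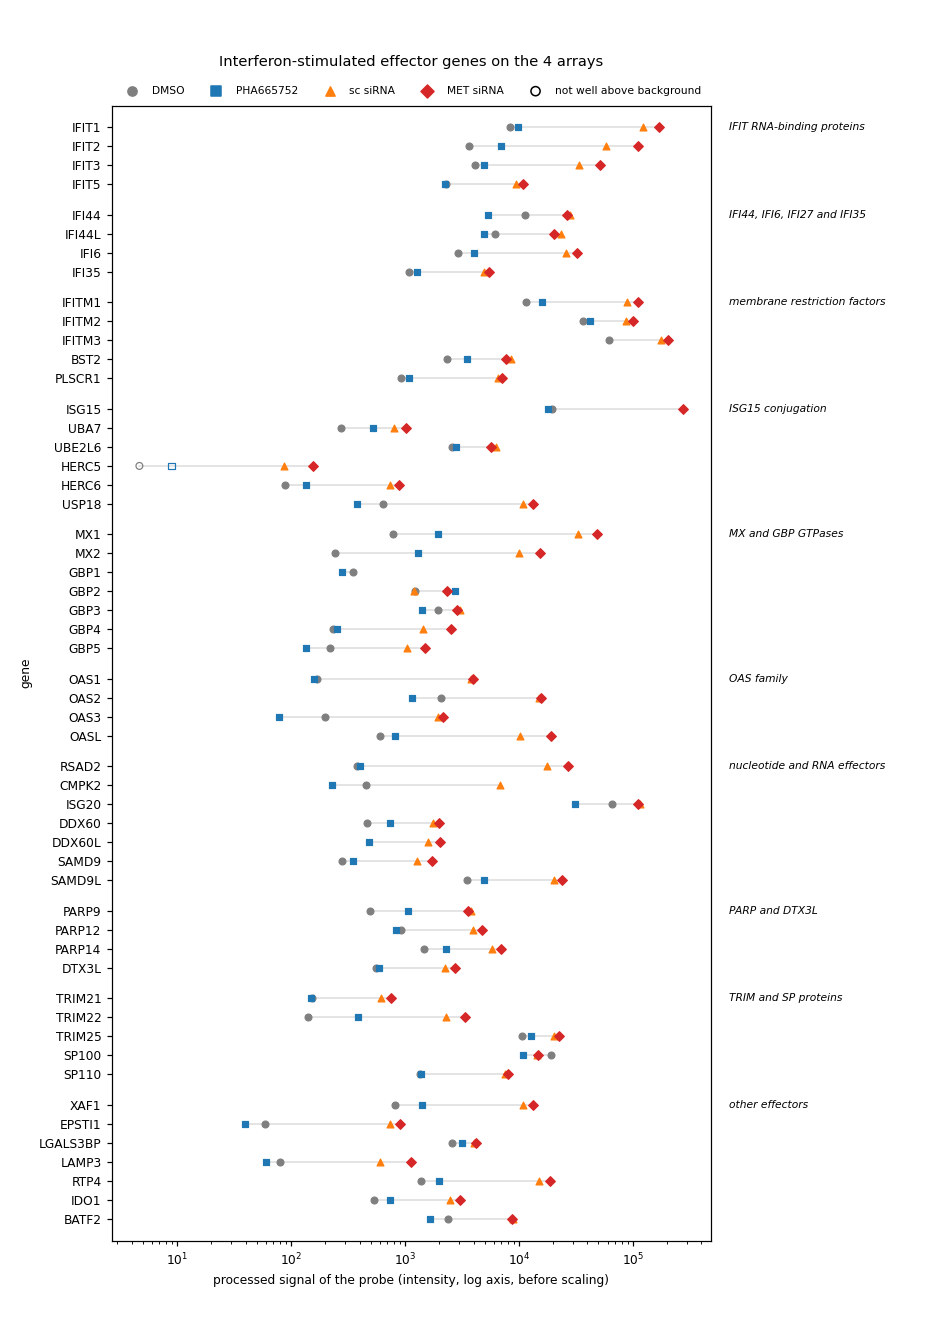
Processed signal (linear intensity, log axis) of every member with a probe on the DMSO, PHA665752, sc siRNA and MET siRNA arrays, 1 point per array, genes grouped by role; open points are not well above background and spots with an outlier mark are not drawn. Both siRNA arrays lie to the right of both other arrays for 46 of the 48 members with a value on all 4 arrays, and levels cannot be compared between genes. This order was not counted over all genes.

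The plot of signals by array shows this layout gene by gene. Of the 48 members valued on all 4 arrays, 46 had both siRNA arrays above both other arrays on the scaled signals. The exceptions were GBP2, highest with PHA665752, and SP100, highest with DMSO. MET siRNA was the highest array for 37 members and sc siRNA for 9, but centring on probes well above background turned this to 14 and 32. Both siRNA arrays stayed above both others for 46 members under each of the 4 other scalings and corrections tried. The lowest array was DMSO for 36 and PHA665752 for 12. The order of the arrays was not counted over all genes, so these counts have no background beside them.

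The IFIT proteins bind viral RNA that lacks the marks of host messages. IFIT1 read 8376 (DMSO), 9925 (PHA665752), 122445 (sc siRNA) and 168473 (MET siRNA), log2 ratios of 4.12 for sc siRNA over DMSO, 0.41 for MET siRNA over sc siRNA and 0.46 for PHA665752 over DMSO. IFIT2 read 3671 (DMSO), 6902 (PHA665752), 58158 (sc siRNA) and 111178 (MET siRNA) on its brighter probe, and its ratios were 4.24, 0.89 and 1.13 in the same order. It was the IFIT gene with the highest ratio in all 3 comparisons, and its other probe gave 4.54, 1.04 and 1.08, past 2-fold with MET siRNA. IFIT3, which stabilises IFIT1 on RNA, read 4095 (DMSO), 4909.8 (PHA665752), 33825 (sc siRNA) and 51084 (MET siRNA), and IFIT5 read 2305 (DMSO), 2265 (PHA665752), 9440.0 (sc siRNA) and 10863 (MET siRNA). Their ratios of sc siRNA over DMSO were 3.30 and 2.29. The group medians were 3.71, 0.48 and 0.47. All 4 IFIT genes were above 0 in every comparison at this scaling, but IFIT5 was at -0.15 with MET siRNA when arrays were centred on probes well above background, and at -0.06 with PHA665752 under the 50th percentile.

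IFI44, IFI44L, IFI6 and IFI35 are induced by interferon and act on virus replication or on the response. IFI6, a small membrane protein, read 2951 (DMSO), 4069.7 (PHA665752), 25967 (sc siRNA) and 32467 (MET siRNA), log2 ratios of 3.39, 0.28 and 0.68. IFI35 read 1078 (DMSO), 1275 (PHA665752), 4902 (sc siRNA) and 5436 (MET siRNA), a ratio of 2.44 for sc siRNA over DMSO. IFI44 and IFI44L, which are paralogs, stood below their sc siRNA level with MET siRNA. IFI44 read 11238 (DMSO), 5389 (PHA665752), 27859 (sc siRNA) and 26278 (MET siRNA), ratios of 1.56, -0.13 and -0.85, and so was lower with either MET treatment than with its control, by less than 2-fold. IFI44L read 6144 (DMSO), 4899.9 (PHA665752), 23318 (sc siRNA) and 20345 (MET siRNA), with ratios of -0.24 for MET siRNA over sc siRNA and -0.11 for PHA665752 over DMSO beside 2.18 between the controls.

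Membrane restriction factors block virus entry or release. IFITM1 read 11596 (DMSO), 15863 (PHA665752), 88164 (sc siRNA) and 110102 (MET siRNA), a ratio of 3.18 between the controls. Its brighter probe did not stand for it because the MET siRNA spot was marked, and gave 3.11 between the controls. IFITM2 read 36699 (DMSO), 42384 (PHA665752), 86612 (sc siRNA) and 99815 (MET siRNA), a ratio of 1.49. IFITM3 read 61909 (DMSO), 178591 (sc siRNA) and 204887 (MET siRNA), a ratio of 1.78, and its PHA665752 spot carried an outlier mark at 76006. The IFITM genes are close in sequence, and the probe sequences were not at hand, so part of their signal may be shared. BST2, or tetherin, which holds budding virus at the surface, read 2360.0 (DMSO), 3489.5 (PHA665752), 8505 (sc siRNA) and 7641 (MET siRNA), ratios of 2.10, -0.20 and 0.78. PLSCR1, a phospholipid scramblase, read 917 (DMSO), 1076 (PHA665752), 6628 (sc siRNA) and 7108 (MET siRNA), a ratio of 3.11. The 4 of these genes with a ratio of PHA665752 over DMSO lay between 0.42 and 0.78, all above 0 and under 2-fold.

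ISG15 is a ubiquitin-like protein that is attached to others by the enzymes UBA7, UBE2L6 and HERC5, while USP18 removes it and also dampens the type I receptor. ISG15 read 19644 (DMSO), 18131 (PHA665752) and 278122 (MET siRNA), and its sc siRNA spot, marked as an outlier, 220382. With the mark unused sc siRNA over DMSO gave a log2 ratio of 3.75, and PHA665752 over DMSO gave 0.10. UBA7, the activating enzyme, read 275 (DMSO), 528 (PHA665752), 794 (sc siRNA) and 1023 (MET siRNA), ratios of 1.78, 0.32 and 1.15. UBE2L6, the conjugating enzyme, read 2584 (DMSO), 2797 (PHA665752), 6277 (sc siRNA) and 5639 (MET siRNA), a ratio of 1.53. With PHA665752 activating and conjugating enzyme were both above 0, UBA7 past 2-fold and UBE2L6 at 0.33. UBA7 was under 2-fold at the 50th percentile (0.91) and with normexp (0.93). HERC5, the main ligase, was not well above background with DMSO (4.67) or PHA665752 (8.93) and read 86.6 (sc siRNA) and 157 (MET siRNA). Against the lowest signal well above background on the DMSO array, sc siRNA was at least 9.52-fold higher, and MET siRNA over sc siRNA gave 0.82. Its paralog HERC6 read 88.1 (DMSO), 135 (PHA665752), 734 (sc siRNA) and 884 (MET siRNA), a ratio of 3.31, and its probes gave 0.22 and -0.22 for MET siRNA over sc siRNA. USP18 read 643 (DMSO), 381 (PHA665752), 10965 (sc siRNA) and 13215 (MET siRNA), ratios of 4.35, 0.22 and -0.54, so it stood among the highest between the controls and below DMSO with the inhibitor.

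The MX and GBP genes encode large GTPases, the MX proteins acting on incoming virus and the GBP proteins on vacuoles and membranes of pathogens. MX1 read 781 (DMSO), 1970.3 (PHA665752), 33218 (sc siRNA) and 48218 (MET siRNA), log2 ratios of 5.66, 0.49 and 1.55. MX2 read 244 (DMSO), 1298 (PHA665752), 9993 (sc siRNA) and 15189.9 (MET siRNA), ratios of 5.61, 0.56 and 2.63. Between the controls both differed by about the same factor, 50.7-fold for MX1 and 48.8-fold for MX2, while with PHA665752 MX2 had the highest ratio of all members. GBP2 read 1217 (DMSO), 2752 (PHA665752), 1202 (sc siRNA) and 2333 (MET siRNA), ratios of 0.24, 0.91 and 1.39. It was the member that differed least between both controls in the upward direction, and it had the highest ratio of all members with MET siRNA and the fourth highest with PHA665752. GBP4 read 232 (DMSO), 253 (PHA665752), 1448 (sc siRNA) and 2548 (MET siRNA), ratios of 2.89, 0.77 and 0.34. GBP5 read 221 (DMSO), 134 (PHA665752), 1034 (sc siRNA) and 1488 (MET siRNA), ratios of 2.48, 0.48 and -0.51. GBP3 passed 2-fold nowhere, with 0.89, -0.14 and -0.26. GBP1, the best known of the family, read 351 (DMSO) and 278 (PHA665752), a ratio of -0.12. Both of its siRNA spots carried an outlier mark, at 1232 (sc siRNA) and 1171 (MET siRNA).

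**Figure D2:**
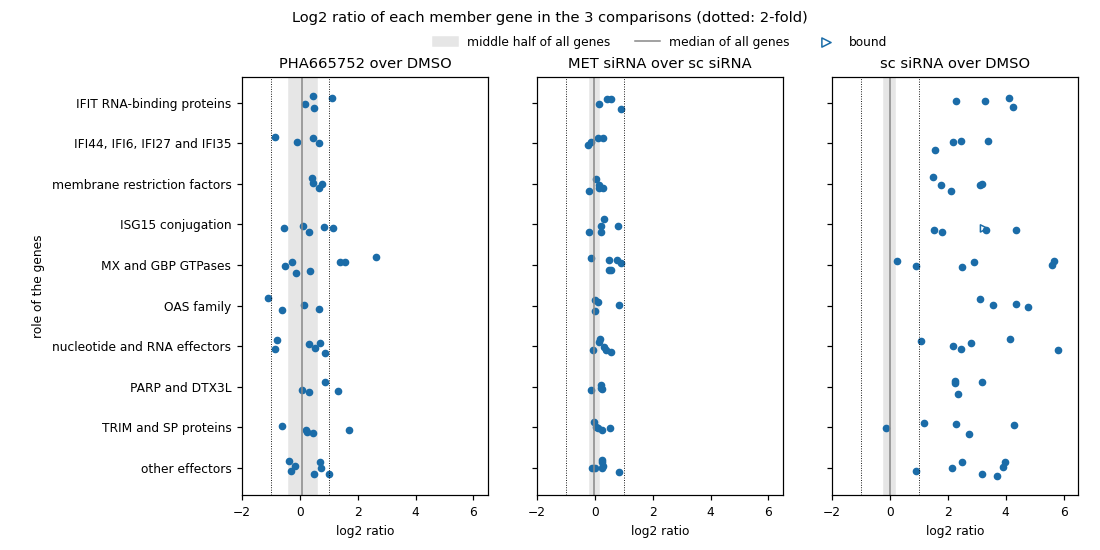
Log2 ratio of each member (points, 1 per gene; triangle, a lower bound for HERC5) in the 3 comparisons, by role; the grey band spans the middle part of all named genes from the lower to the upper quartile, the grey line is their median and the dotted lines mark 2-fold. The members lie far to the right for sc siRNA over DMSO (median 2.76), close to 0 for MET siRNA over sc siRNA (median 0.22) and on both sides of 0 for PHA665752 over DMSO (median 0.43).

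The OAS enzymes make oligoadenylates in the presence of double-stranded RNA, which switch on RNase L. OAS1 read 168 (DMSO), 159.5 (PHA665752), 3805 (sc siRNA) and 3953 (MET siRNA), ratios of 4.76, 0.01 and 0.14. OAS3, the largest member, read 198 (DMSO), 78.7 (PHA665752), 1965 (sc siRNA) and 2178 (MET siRNA), ratios of 3.57, 0.10 and -1.12. OASL, which binds RNA but lacks the enzyme activity, read 599 (DMSO), 813 (PHA665752), 10327 (sc siRNA) and 19171 (MET siRNA), ratios of 4.36, 0.85 and 0.66. OASL was thus the OAS gene that stood highest with MET siRNA. OAS2 had 3 probes, and the 2 with a ratio of PHA665752 over DMSO disagreed in direction. The brightest read 2088 (DMSO), 1160.4 (PHA665752), 15152 (sc siRNA) and 15515 (MET siRNA), a ratio of -0.63, while another read 180 with DMSO and 286 with PHA665752, a ratio of 0.88. The third probe had a marked PHA665752 spot and gave 1.01 with the mark unused. Between the controls the 3 probes ran from 3.11 to 4.48, all upward. The 3 probes are annotated to different RefSeq transcripts of the gene, and the direction with the inhibitor is unsettled for this gene.

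**Figure D3:**
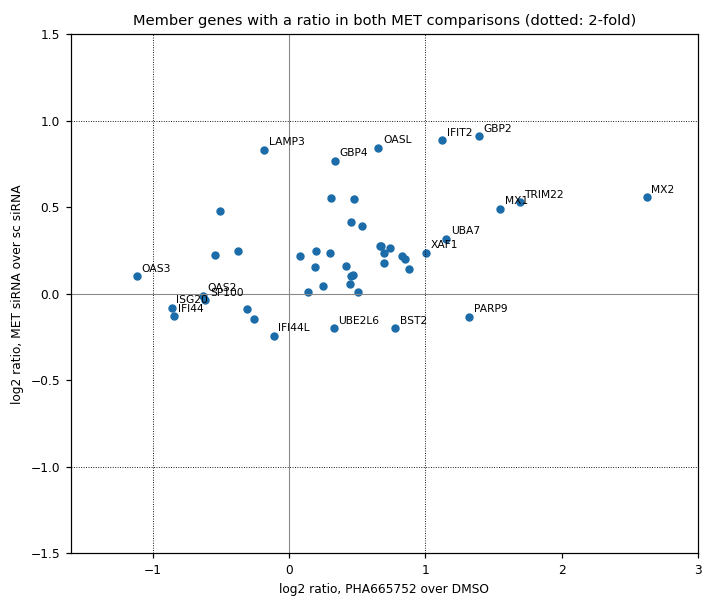
Log2 ratio of MET siRNA over sc siRNA (vertical axis) against that of PHA665752 over DMSO (horizontal axis), 1 point per member for the 47 members with both, dotted lines at 2-fold; the comparisons share no array. At this scaling 32 of 47 members lie above 0 on both axes (all genes 4728 of 13440). With arrays centred on probes well above background 12 members do, and all genes were not counted there. MX2 lies farthest right, GBP2 and IFIT2 lie highest, and OAS3 lies farthest left.

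The next group acts on nucleotides, RNA or virus replication. RSAD2, or viperin, which makes a chain-terminating nucleotide, read 379 (DMSO), 406 (PHA665752), 17660.4 (sc siRNA) and 26768 (MET siRNA), a ratio of 5.79 (55.5-fold) for sc siRNA over DMSO, the highest of all 14815 genes. Its ratios were 0.55 with MET siRNA and 0.31 with PHA665752. CMPK2, a kinase that supplies the nucleotide RSAD2 uses and neighbours it in the genome, read 458 (DMSO), 228 (PHA665752) and 6787 (sc siRNA), and its MET siRNA spot was marked at 8369.6. With PHA665752 the pair pointed in opposite directions, CMPK2 at -0.79 and RSAD2 at 0.31, neither past 2-fold. ISG20, an RNA exonuclease, read 65200.3 (DMSO), 30996 (PHA665752), 114715 (sc siRNA) and 112111 (MET siRNA), ratios of 1.07, -0.08 and -0.86, the lowest ratio past 2-fold between the controls. DDX60, a helicase, read 464 (DMSO), 736 (PHA665752), 1758 (sc siRNA) and 2007 (MET siRNA), a ratio of 2.18 between the controls. Its paralog DDX60L read 488 (PHA665752), 1586 (sc siRNA) and 2024 (MET siRNA), and its DMSO spot was marked at 271. SAMD9 read 278 (DMSO), 348 (PHA665752), 1266 (sc siRNA) and 1718 (MET siRNA), and its paralog SAMD9L read 3517 (DMSO), 4926 (PHA665752), 20450.3 (sc siRNA) and 23866 (MET siRNA). These restriction factors of poxviruses had ratios of 2.44 and 2.79 between the controls.

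PARP9 and DTX3L form a complex that modifies histones and viral proteins, and PARP12 and PARP14 are mono-ADP-ribosyltransferases. PARP9 read 499 (DMSO), 1074 (PHA665752), 3817 (sc siRNA) and 3593 (MET siRNA), ratios of 3.19, -0.13 and 1.32. DTX3L read 559 (DMSO), 594 (PHA665752), 2253 (sc siRNA) and 2744 (MET siRNA), ratios of 2.26, 0.24 and 0.30. The partners were both higher with sc siRNA than with DMSO, but only PARP9 passed 2-fold with the inhibitor. PARP12 read 918 (DMSO), 839 (PHA665752), 3950.4 (sc siRNA) and 4739 (MET siRNA), a ratio of 2.36 between the controls. PARP14 read 1477 (DMSO), 2298 (PHA665752), 5821 (sc siRNA) and 6913 (MET siRNA), a ratio of 2.23. The group was narrow there, from 2.23 to 3.19.

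TRIM proteins are ubiquitin ligases, TRIM25 acting on the RNA sensor RIG-I and TRIM21 on antibody-bound virus, and SP100 and SP110 are nuclear body proteins. TRIM22 read 139.7 (DMSO), 389.5 (PHA665752), 2272 (sc siRNA) and 3389 (MET siRNA), ratios of 4.28, 0.53 and 1.69, the second highest of the members with PHA665752. TRIM25 read 10638 (DMSO), 12701 (PHA665752), 20373 (sc siRNA) and 22698 (MET siRNA), a ratio of 1.19, and TRIM21 read 152 (DMSO), 150.3 (PHA665752), 618 (sc siRNA) and 757 (MET siRNA), a ratio of 2.28. SP110 read 1348 (DMSO), 1384 (PHA665752), 7522 (sc siRNA) and 8008 (MET siRNA), a ratio of 2.73. SP100 is the exception of the group. Its brightest probe read 19095 (DMSO), 10768 (PHA665752), 14504 (sc siRNA) and 14588 (MET siRNA), ratios of -0.14, -0.04 and -0.61, whereas its other probes gave 1.20 and 1.78 between the controls and 0.78 and 0.29 with PHA665752. The probes of SP100 thus disagreed in direction in both comparisons with DMSO.

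Among the remaining members, XAF1, a promoter of cell death, read 819.6 (DMSO), 1419 (PHA665752), 10907 (sc siRNA) and 13265 (MET siRNA), ratios of 3.99, 0.24 and 1.01. The last of these lies at the 2-fold limit and fell under it in 5 of the 9 other settings, to 0.76 at the lowest. EPSTI1 read 58.8 (DMSO), 39.1 (PHA665752), 739.8 (sc siRNA) and 907 (MET siRNA), ratios of 3.91, 0.25 and -0.37. RTP4, a chaperone of receptors that also binds viral RNA, read 1379 (DMSO), 1989.6 (PHA665752), 15073 (sc siRNA) and 18679 (MET siRNA), a ratio of 3.70. LAMP3, a lysosomal membrane protein, read 79.6 (DMSO), 60.5 (PHA665752), 610.4 (sc siRNA) and 1123 (MET siRNA), ratios of 3.19, 0.83 and -0.18. Together with GBP2, IFIT2, OASL and HERC5 it was among the 5 members with the highest ratios with MET siRNA. IDO1, which breaks down tryptophan, read 533 (DMSO), 747 (PHA665752), 2506 (sc siRNA) and 3043 (MET siRNA), and BATF2, a transcription factor, read 2373 (DMSO), 1655 (PHA665752), 8886 (sc siRNA) and 8641 (MET siRNA). Their ratios between the controls were 2.49 and 2.16. LGALS3BP, a secreted glycoprotein, read 2587 (DMSO), 3164 (PHA665752), 4044 (sc siRNA) and 4209.9 (MET siRNA) and did not pass 2-fold in any comparison. IDO1 was spotted 10 times on each array, and its mean log2 level relative to the 75th percentile was -0.89 ± 0.04 (SD, n = 10 spots) on the DMSO array, -0.19 ± 0.05 (SD, n = 10 spots) on the PHA665752 array, 1.59 ± 0.04 (SD, n = 10 spots) on the sc siRNA array and 1.83 ± 0.05 (SD, n = 10 spots) on the MET siRNA array. These SDs are between spots of 1 array and hold no error of culture or labelling.

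Both MET treatments could be set side by side because they share no array, as in the plot of one treatment against the other. Over the 47 members with both ratios, 32 were above 0 in both, 7 below 0 in both, 5 below with PHA665752 and above with MET siRNA, and 3 the reverse. The sign was shared by 39 of 47 (83%), against 69.6% of 13440 genes in all. These counts depend on the scaling: with each array centred on its probes well above background, 12 of 47 were above 0 in both, 11 below 0 in both and 22 above with PHA665752 and below with MET siRNA, so that 23 shared the sign. The share over all genes was not counted at that scaling. Pearson's r was 0.40 and Spearman's rho 0.42 over the members, against 0.52 and 0.54 over all genes. These correlations are across genes, which share the same 4 arrays and are not independent.

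The genes that make and carry the interferon signal were examined as 43 further genes. Of the ligands, IFNB1, the type I interferon of epithelial cells and fibroblasts, was not well above background with DMSO (2.63) or PHA665752 (3.32) and read 165 (sc siRNA) and 555 (MET siRNA). It was at least 18.1-fold higher with sc siRNA than with DMSO, and its log2 ratio of MET siRNA over sc siRNA was 1.71. The type III ligand IFNL2 read 51.7 (DMSO), 39.5 (PHA665752), 411 (sc siRNA) and 1492 (MET siRNA), ratios of 3.25, 1.81 and -0.17. IFNL3 was not well above background with DMSO or PHA665752 and read 26.9 (sc siRNA) and 116 (MET siRNA), a ratio of 2.06. IFNL1 read 114 (sc siRNA), at least 12.5-fold above DMSO, and its MET siRNA spot was marked at 376. IFNL2 and IFNL3 are nearly identical, so their probes may share signal. No effector gene passed 2-fold with MET siRNA on the probe that stood for it, whereas 3 of the 4 ligands with a ratio did, against 2.04% of all genes. IFNA2, IFNK and IFNG were not well above background on any array, IFNE passed 2-fold nowhere and IFNA1 had no probe.

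**Figure D4:**
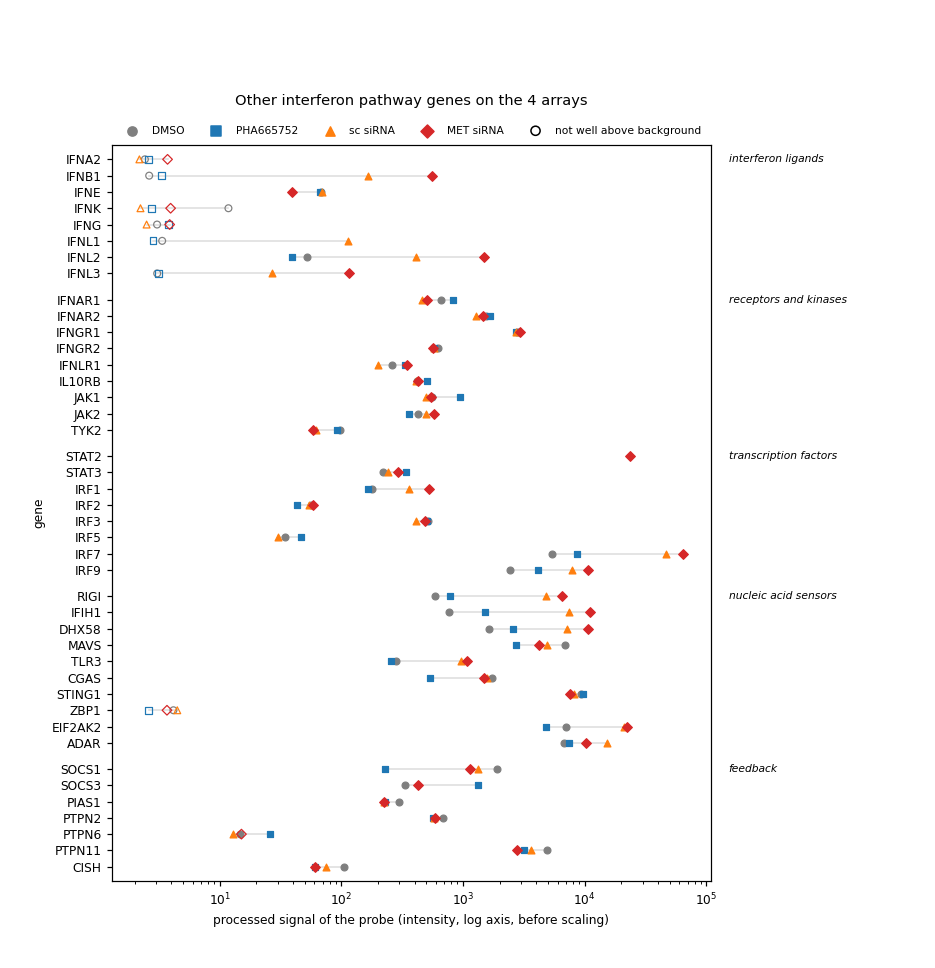
Processed signal (linear intensity, log axis) of the interferon ligands, receptors and kinases, transcription factors, nucleic acid sensors and feedback genes on the 4 arrays, 1 point per array; open points are not well above background and spots with an outlier mark are not drawn. IFNB1, IFNL1 and IFNL3 are well above background on the siRNA arrays only, and the receptors and kinases lie close together on all 4 arrays.

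None of the 9 receptor and kinase genes passed 2-fold in any comparison. Of all genes, 2.83% were higher and 1.15% lower between the controls, 13.1% and 7.95% with PHA665752, and 2.04% and 0.702% with MET siRNA. Ratios of sc siRNA over DMSO lay between -0.39 for TYK2 and 0.46 for JAK2. They lay between -0.03 for JAK2 and 0.97 for JAK1 with PHA665752, and between -0.13 for TYK2 and 0.73 for IFNLR1 with MET siRNA. Among the transcription factors, 3 of 7 with a ratio were higher with sc siRNA than with DMSO, against 2.83% of all genes. IRF7, which drives further interferon production, read 5421 (DMSO), 8725 (PHA665752), 46452 (sc siRNA) and 64759 (MET siRNA), ratios of 3.35, 0.43 and 0.90. IRF9, the DNA-binding partner of STAT2, read 2409.6 (DMSO), 4123 (PHA665752), 7896 (sc siRNA) and 10682 (MET siRNA), ratios of 1.97, 0.39 and 0.99, and IRF1 read 178 (DMSO), 167 (PHA665752), 361 (sc siRNA) and 524 (MET siRNA), a ratio of 1.28. STAT2 spots were marked on 3 arrays.

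Of 9 nucleic acid sensors with a ratio, 6 were higher with sc siRNA than with DMSO, against 2.83% of all genes. RIGI, the sensor of short double-stranded RNA, read 591 (DMSO), 779.7 (PHA665752), 4815 (sc siRNA) and 6527 (MET siRNA), a ratio of 3.28, and IFIH1, the sensor of long double-stranded RNA, read 771 (DMSO), 1513 (PHA665752), 7488 (sc siRNA) and 10979.8 (MET siRNA), a ratio of 3.53. DHX58, their regulator, read 1624 (DMSO), 2598 (PHA665752), 7170.2 (sc siRNA) and 10726 (MET siRNA), a ratio of 2.40, and TLR3, the endosomal sensor, read 283 (DMSO), 257 (PHA665752), 965 (sc siRNA) and 1071 (MET siRNA), a ratio of 2.02. The RNA-activated kinase EIF2AK2 read 6994 (DMSO), 4805 (PHA665752), 21186 (sc siRNA) and 22474 (MET siRNA) and the RNA-editing enzyme ADAR read 6758 (DMSO), 7372 (PHA665752), 15331 (sc siRNA) and 10237 (MET siRNA), ratios of 1.85 and 1.44. With PHA665752, IFIH1 was higher (1.19), whereas CGAS, the sensor of cytosolic DNA, read 1723 (DMSO), 538 (PHA665752), 1567 (sc siRNA) and 1480.3 (MET siRNA), a ratio of -1.47. The adaptor MAVS was lower on its brightest probe, which read 6944 (DMSO), 2723 (PHA665752), 4945 (sc siRNA) and 4241 (MET siRNA), a ratio of -1.14, but its other probes gave -0.09 and 0.71.

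The last list holds genes that restrain the signal. None of the 6 with a ratio passed 2-fold between the controls, where USP18, counted among the effectors, had reached 4.35. Of all genes 2.83% were higher and 1.15% lower by that margin there. With PHA665752, SOCS1, which blocks JAK kinases, read 1901 (DMSO), 230.3 (PHA665752), 1334 (sc siRNA) and 1138 (MET siRNA), a ratio of -2.83. SOCS3, which is better known for restraining cytokines of the IL-6 type, moved the other way, from 334 (DMSO) to 1337 with PHA665752, a ratio of 2.22. The phosphatase PTPN6 read 14.7 (DMSO) and 25.6 (PHA665752), a ratio of 1.02 that was 0.96 with outlier marks unused, and both signals lay close to the lowest well above background on these arrays, 10.8 and 12.3. With the ligands, receptors, factors and sensors, 13 of 36 of these genes were higher by more than 2-fold between the controls (all genes 2.83%) and none was lower (1.15%). Of the 13, 3 were bounds (IFNB1, IFNL1 and IFNL3), counted only through their signal with sc siRNA. Genes dim on both arrays, among them IFNA2, IFNK and IFNG, are not in the 36. With PHA665752 3 of 34 were higher (all genes 13.1%) and 3 lower (7.95%). With MET siRNA 3 of 33 were higher (all genes 2.04%) and none was lower (0.702%).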

How the data were processed

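RNA of Hs746T cells was measured on 4 single-colour Agilent arrays, 1 per condition. The authors deposited the scanner output (Feature Extraction 11.5.1.1 per the file headers), whose processed signal is a linear intensity per spot, corrected for background and not scaled between arrays. Leaving out control spots, an array has 43118 spots and 34127 probes. After removal of spots marked as outliers, the log2 signals of each probe were averaged and the array's 75th percentile was subtracted; it corresponded to signals of 990.1, 853.5, 831 and 858 (DMSO, PHA665752, sc siRNA, MET siRNA). Ratios are differences of these log2 levels, while the signals printed are unscaled. A probe well above background on 1 array of a pair gave a bound, computed against the lowest signal well above background; a probe dim on both gave none.

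The 25771 named probes were identified by RefSeq accession (GRCh38.p14, for names and promoters; the array was annotated on an earlier build). The probe with values on most arrays, then the brightest, stood for its gene. Members, role groups and pathway lists were chosen with earlier results of these data known. Some listed genes are not reported here. Signals are given for members past 2-fold in any comparison and the brightest of each group, and for pathway genes past 2-fold. Other scalings, background correction, filters and probes were tried in 8 settings, and 1 more was added after seeing the data. Python 3.11.15, pandas 2.3.3, R 4.3.3 and limma 3.58.1 were used, and the ratio script was tested on simulated data. The number of arrays limits the precision.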

Additional observations from a re-analysis of the deposited data

How the results depend on the processing

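The ratios were recomputed under 8 other settings and with outlier marks unused, a setting chosen after seeing the data. Scaling to the 50th percentile called 5 members higher and 4 lower in the inhibitor comparison, and gave median log2 ratios of 0.19 with PHA665752 and 2.66 for sc siRNA over DMSO. Centring on the median of probes well above background gave medians of 0.34 for the inhibitor and -0.078 for the MET siRNA, the latter of opposite sign. Correction by normexp gave 6 members higher and 0 lower with PHA665752 (OAS3 at -0.77, UBA7 and XAF1 at 0.93) and a median of 2.42 for sc siRNA over DMSO. In the 2 scalings all genes moved with the members. Shares of all genes past 2-fold were not counted under the other settings. The cause of the normexp shift was not tested. The median of the members lay above that of all genes by 0.24 to 0.40 with PHA665752, by 0.18 to 0.26 with MET siRNA and by 2.40 to 2.80 for sc siRNA over DMSO under every setting run. No member past 2-fold changed direction. The MET siRNA array had the fewest probes well above background (61.1%), which limits ratios of dim probes there. No paired analysis was possible because each condition has 1 array and no replicate numbers.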
